A study of Mus musculus with 6 samples.

Results

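Clade B serpins are the intracellular branch of the serpin family of protease inhibitors. The genes Serpinb9b, Serpinb9, Serpinb8, Serpinb6a, Serpinb6b, Serpinb2 and Serpinb1a were followed in mouse embryonic fibroblasts that overexpressed p27. They are 7 of the 27 clade B genes in a table of 24062 genes. The genes were picked by symbol, with the p27 OE against EV control comparison of these same libraries already known. Their differences between the groups are therefore descriptions, and nothing is supported with them.

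A serpin presents an exposed reactive centre loop as bait. When the target protease cuts the loop, the serpin changes shape and traps the enzyme in a covalent complex, so each inhibitor molecule is used once. Clade B members lack a classical signal peptide and work mainly in the cytosol and nucleus, where they guard cells against proteases released from their own granules or delivered by cytotoxic lymphocytes. In the mouse the family has expanded by gene duplication into paralogs with different loops.

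The cells were primary fibroblasts from C57BL/6 embryos. The p27 OE group carried a lentivirus that overexpresses p27 (gene Cdkn1b), a brake on the cyclin-dependent kinases of the cell cycle. It was harvested 4 days later, and the labels describe its cells as non-senescent. The EV control group had the same day and strain, and EV is not spelled out. A dataset label stands only in the control titles. Each group had 3 libraries, numbered 1 to 3, and the labels do not say whether they came from separate cultures, so p-values measure the spread between these libraries, whatever its source. The labels name no promoter for the vector and no clone.

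Library totals ran from 34920728 to 52098220 counts. Levels are given as CPM, counts relative to the TMM-scaled library size. Cdkn1b stood at 49.9 to 52.2 CPM in the control libraries, and the overexpressing libraries had 419 to 978 CPM, all of them higher. Its paired edgeR log2 fold change was 3.48 ± 0.42 (SE, adjusted p 0.0873), so that fit did not call it. The adjusted p was 6.0e-16 in paired DESeq2, 2.9e-05 in paired limma-voom and 0.180 in edgeR without pairing. Both libraries numbered 1 differed from the rest in sex-linked genes. They carried 317 and 477 CPM of Xist against at most 9.57 CPM elsewhere, and at most 0.0556 CPM of the Y-linked gene Ddx3y against at least 54.3 CPM. Adgre1 and Serpinb9h were listed and are not analysed here. The 10 fibroblast markers were all present, with a summed level of 54103 to 59993 CPM that included Col1a1, Col1a2 and Vim. Of 16 immune markers 15 were in the table, and Cd3e, Ncr1 and S100a9 had 0 counts in all libraries. The epithelial and endothelial lists summed to at most 46.0 and 5.54 CPM. The paired fit described later called 3.80% of all tested genes higher and 3.63% lower. Of 5 tested epithelial markers it called 1 higher, Krt19 (log2 fold change 0.41), and the other 4 ran from -0.31 (Krt18) to 1.37 (Cldn4). Of 4 tested endothelial markers it called 1 higher, Emcn (0.93), and the other 3 ran from -0.54 (Vwf) to 0.87 (Tek). Of 10 fibroblast markers it called 2 lower, Pdgfra (-0.48) and Lum (-0.23), and the other 8 ran from -0.20 (Dcn) to 0.18 (Thy1). These genes were named after their values were seen.

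All 27 genes lie in clusters on 2 chromosomes (GENCODE, GRCm38). On chromosome 1, 12 of them span 749 kb, among them the members Serpinb2 and Serpinb8. On chromosome 13, 15 of them span 1161 kb, among them the other 5 members. Serpinb9 (chr13:33003250-33017957, forward strand) ends 9.46 kb before Serpinb9b (chr13:33027416-33041884, forward strand). Serpinb6b (chr13:32965209-32979067, forward) lies 24.2 kb before Serpinb9, while Serpinb1a (chr13:32842092-32851185, reverse) and Serpinb6a (chr13:33917918-34002794, reverse) lie near the ends of the cluster. Serpinb8 occupies chr1:107590006-107610484 and Serpinb2 chr1:107511423-107535478, both on the forward strand.

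The members fall into 2 close pairs by sequence. The coding sequences of Serpinb6a and Serpinb6b were 86.4% identical and those of Serpinb9b and Serpinb9 86.1%, while each of the other 19 comparisons gave 60.1% to 69.3%. Each coding transcript had 7 or 8 exons and a coding sequence of 1125 to 1248 bases. The promoters of the close pairs differed more: over the 250 bases before the start, Serpinb9b and Serpinb9 were 65.1% identical. Serpinb6b was 52.2% and 59.5% identical to the windows of the first and second listed starts of Serpinb6a. Promoters outside the close pairs came near these values, with 63.5% for Serpinb9 and the second listed start of Serpinb2. The promoters are shown for the neighbours Serpinb9b and Serpinb9, whose values between the groups are set side by side, for Serpinb8, the member with the lower level in p27 OE, and for the first listed start of Serpinb6a, the most abundant member. They are the 250 bases before the RefSeq start (GRCm38.p6), written 5′ to 3′ on the strand of the gene. For Serpinb9 this window lies inside the GENCODE gene, which begins at 33003250, so its matches and identity depend on the start used. Capitals mark matches on either strand to TGANTCA (AP-1), to a core of the interferon response element ISRE or to a loose NF-kB core. No marked match overlaps another.
Serpinb9b, chr13:33027164-33027413, forward: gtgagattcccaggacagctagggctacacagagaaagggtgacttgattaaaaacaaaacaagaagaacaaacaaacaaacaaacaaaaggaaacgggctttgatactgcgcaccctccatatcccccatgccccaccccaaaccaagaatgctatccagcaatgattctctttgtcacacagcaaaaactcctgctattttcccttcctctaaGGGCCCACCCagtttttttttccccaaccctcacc
Serpinb9, chr13:33004291-33004540, forward: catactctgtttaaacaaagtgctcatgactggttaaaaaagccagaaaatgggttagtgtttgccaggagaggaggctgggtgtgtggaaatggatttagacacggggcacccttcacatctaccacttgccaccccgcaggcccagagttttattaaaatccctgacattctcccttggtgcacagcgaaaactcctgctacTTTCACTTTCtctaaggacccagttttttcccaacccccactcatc
Serpinb8, chr1:107589756-107590005, forward: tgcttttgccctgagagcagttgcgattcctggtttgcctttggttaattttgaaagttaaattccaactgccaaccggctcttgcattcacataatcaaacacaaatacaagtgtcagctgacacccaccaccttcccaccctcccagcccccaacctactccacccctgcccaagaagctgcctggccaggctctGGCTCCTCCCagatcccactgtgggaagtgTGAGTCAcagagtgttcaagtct
Serpinb6a, chr13:34002795-34003044, reverse: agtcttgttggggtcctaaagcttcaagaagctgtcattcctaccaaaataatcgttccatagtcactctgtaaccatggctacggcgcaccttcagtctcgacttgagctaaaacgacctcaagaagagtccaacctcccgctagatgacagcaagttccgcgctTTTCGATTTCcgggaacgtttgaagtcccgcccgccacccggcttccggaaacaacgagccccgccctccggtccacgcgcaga

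Serpinb8 had a TGANTCA match starting 23 bases before the start, and Serpinb2, not printed here, had one in the windows of both its starts. That motif stood in 6.75% of all 32851 promoter windows of the same length. Serpinb9 and Serpinb6a had an ISRE match on the reverse strand, 46 and 84 bases before the start, against 2.98% of all windows, and the window of Serpinb9b had none. The NF-kB core, matched in Serpinb9b and Serpinb8, was in 45.8% of all windows. The Serpinb6a window held 20 CpG sites, against 2 in Serpinb9b, 3 in Serpinb9, 2 in Serpinb8 and a median of 6 over all windows. The window of the second listed start of Serpinb6a, not printed here, held 2 CpG sites and no ISRE match. A match describes the letters only.

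The members covered a wide range of levels. Compared per length, as CPM per kb of exon, Serpinb6a was far above the rest with a median of 37.2 over the 6 libraries and a range of 34.0 to 40.2. Serpinb6a, related to the human cathepsin G inhibitor SERPINB6, made up 77.3% to 83.6% of the summed clade B CPM. Serpinb9, the inhibitor of granzyme B, followed at 4.96 CPM per kb (4.69 to 6.14). Serpinb1a, an inhibitor of the neutrophil proteases elastase and cathepsin G, was at 2.32 (1.78 to 6.78). Serpinb6b, reported as an inhibitor of granzyme A, was at 2.09 (1.60 to 2.50) and Serpinb9b at 1.97 (0.906 to 3.53). Serpinb8, an inhibitor of the proprotein convertase furin, was at 1.01 (0.811 to 1.84). Serpinb2, which inhibits the plasminogen activator urokinase, was last at 0.0485 (0.0170 to 0.122). The ranges of neighbours in this order overlapped from Serpinb9 down to Serpinb8. Serpinb6a above and Serpinb2 below overlapped no other member.

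**Figure D1:**
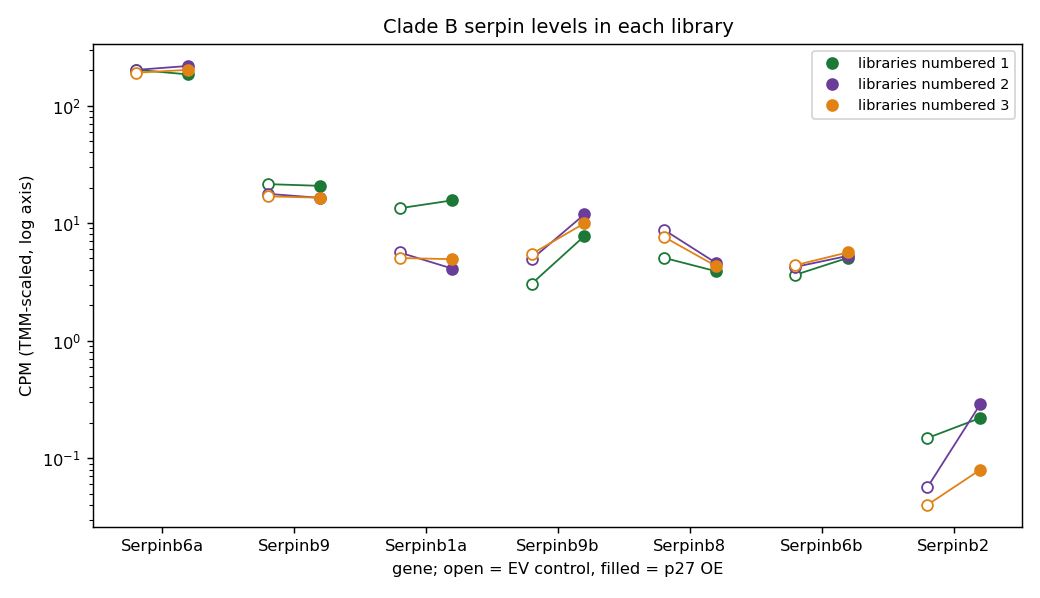
CPM (log axis) of the 7 members in each library, open points for EV control and filled points for p27 OE, with lines joining libraries of the same number. Serpinb9b rises and Serpinb8 falls along each of the 3 lines, Serpinb6a stays near 200 CPM in all 6 libraries (mean 199.3), and Serpinb1a separates the libraries numbered 1 (13.4 and 15.6 CPM) from the rest.

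Of the members, 6 passed the filter on low counts, and Serpinb2 did not. The edgeR fit without pairing called 0 of the 14090 tested genes and hence 0 members. Its unadjusted p was under 0.05 for 1017 genes (7.22%). Unpaired DESeq2 called 53 genes higher and 36 lower, 1 member (Serpinb9b) among them. With the library number as a block, edgeR called 1047 genes, 7.43% of those tested (3.80% higher, 3.63% lower). Among the 6 tested members this paired fit called 1 higher, Serpinb9b, and 1 lower, Serpinb8. In CPM the groups did not overlap for 3 of the 6, Serpinb9b and Serpinb6b being higher and Serpinb8 lower in p27 OE, against 14.9% of all tested genes (6.61% higher, 8.28% lower). Within all 3 numbers the same direction held for 2 tested members that were higher, Serpinb9b and Serpinb6b, and 2 that were lower, Serpinb8 and Serpinb9, against 21.8% and 23.7% of all tested genes. The median paired log2 fold change of the 6 was -0.02, beside -0.00 (-0.0012) for all tested genes. Because the choice of members used this comparison, nothing is read from these counts.

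Among the inhibitors of the granzyme branch, Serpinb9b and Serpinb9 are neighbours, and the difference between their fold changes was not tested. In EV control 1, 2 and 3 Serpinb9b measured 3.04, 4.92 and 5.44 CPM, and in p27 OE 1, 2 and 3 it measured 7.76, 11.8 and 9.97 CPM. Every p27 OE library was above every EV control library, and the number 1 library was the lowest of each group. The means were 4.47 ± 1.27 and 9.86 ± 2.05 CPM (SD, n = 3), and the ratio within numbers 1, 2 and 3 was 2.55, 2.41 and 1.83. The paired log2 fold change was 1.16 ± 0.13 (SE), rank 66 of 14090 from the largest increase. As a description, its edgeR adjusted p was 0.651 without pairing and 0.000297 with it, and DESeq2 without pairing gave 0.0195.

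In the same order Serpinb9 measured 21.5, 17.7 and 16.9 CPM in EV control, and p27 OE had 20.7, 16.4 and 16.4 CPM. The groups overlapped, and in each group the number 1 library was the highest. Its means were 18.7 ± 2.43 and 17.9 ± 2.50 CPM (SD, n = 3) and its paired log2 fold change was -0.07 ± 0.08 (SE). The level of Serpinb9b relative to Serpinb9, per kb of exon within each library, was 0.148, 0.289 and 0.336 in EV control and 0.390, 0.754 and 0.632 in p27 OE. Serpinb9b thus stayed below its neighbour in all 6 libraries, but each p27 OE library held a higher ratio than any EV control library. Few exact 50-base stretches were shared between the pair, and reads placed with mismatches were not tested. Of the 50-base stretches in Serpinb9b transcripts 0.388% also occurred in another clade B gene, and 5.38% in any other gene, mostly the antisense transcript Gm36099, which overlaps 278 exonic bases. The TruSeq kit of the labels, version 2, does not mark strand, so reads over that overlap cannot be told apart.

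Granzymes themselves were scarce. Gzma, whose product Serpinb6b is reported to inhibit, had 0 counts in every library, which allows up to 0.0556 to 0.0848 CPM depending on the library (3 counts, counting error only). Gzmb had 2 counts in EV control 3 and in p27 OE 2 and 0 in the others. Another granzyme gene, Gzme, singled out with Gzmd after the values were seen, was measurable. Its EV control values were 1.09, 1.19 and 1.72 CPM, and its p27 OE values 2.26, 3.97 and 3.53 CPM. Its groups did not overlap and it rose in the paired edgeR fit by 1.26 ± 0.22 on the log2 scale (SE, n = 3 pairs, adjusted p 0.00481). The edgeR adjusted p was 0.651 without pairing and lay between 0.00145 and 0.0129 in paired fits that left out the libraries of a number. Gzmd, a close copy, ranged from 0.370 to 0.509 CPM in EV control, with 0.527 to 1.28 CPM for p27 OE (paired edgeR 0.90 ± 0.35, adjusted p 0.134). Of the 50-base stretches of Gzme 20.6% also occur in other genes, chiefly Gzmd, so the split between these copies is uncertain. Gzmm, also tested, had 0.220 to 0.339 CPM in EV control and 0.286 to 0.417 CPM in p27 OE. Its groups overlapped and it was not called (paired edgeR 0.27 ± 0.45, adjusted p 0.760).

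Serpinb6b, the other granzyme-directed member, had EV control levels of 3.63, 4.24 and 4.38 CPM, and p27 OE levels of 5.08, 5.27 and 5.65 CPM. All p27 OE libraries were higher, by a narrow margin. The ratios within numbers were 1.4, 1.24 and 1.29, and the paired log2 fold change was 0.39 ± 0.14 (SE, edgeR adjusted p 0.110), so the gene was not called. For its paralog Serpinb6a the EV control libraries gave 202, 201 and 190.2 CPM, while p27 OE gave 184, 217 and 202 CPM. These groups overlapped and the ratio was below 1 within number 1 and above 1 within numbers 2 and 3, with a paired log2 fold change of 0.02 ± 0.06. Relative to Serpinb6a, per kb, Serpinb6b stood at 0.0495 ± 0.0061 in EV control and 0.0636 ± 0.0049 in p27 OE (SD, n = 3). The exons of Serpinb6a share 762 bases with Nqo2, 584 with 1110046J04Rik and 241 with Ripk1, all on the opposite strand. Of its 50-base stretches 25.1% occur in another gene but 0.506% in another clade B gene, so its level is uncertain where these genes contribute reads.

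**Figure D2:**
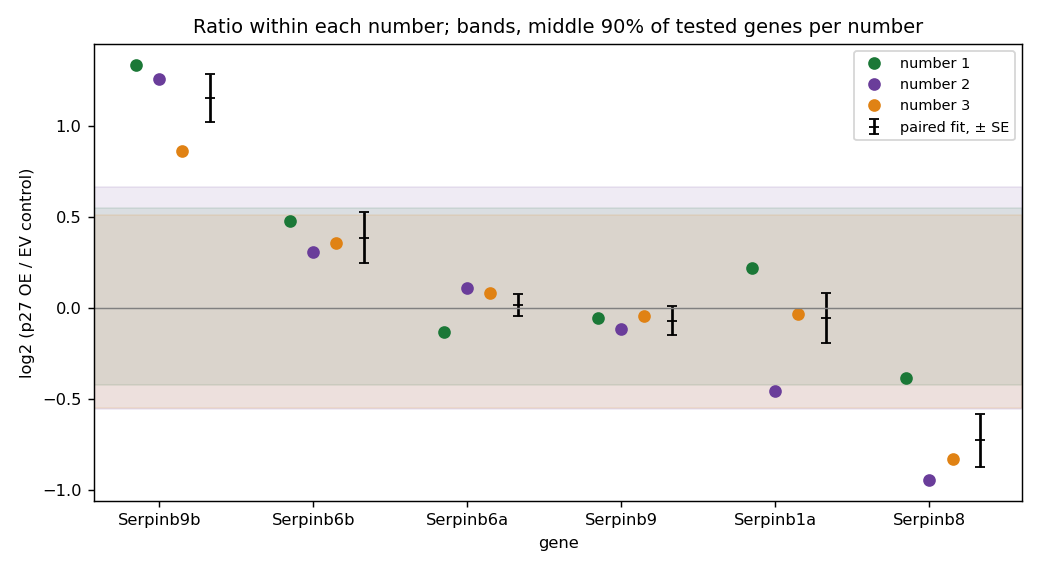
Log2 ratio of p27 OE to EV control within each library number (coloured points) and the paired edgeR estimate ± SE (black) for the 6 tested members, with coloured bands for the middle 90% of the 14090 tested genes in each number. Serpinb9b lies above the bands in all 3 numbers, Serpinb8 lies below its band in numbers 2 and 3 and within it in number 1, and the other members lie within the bands.

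Serpinb8, the furin inhibitor, had 5.07, 8.82 and 7.67 CPM in EV control 1, 2 and 3, and p27 OE 1, 2 and 3 had 3.89, 4.57 and 4.29 CPM. All 3 p27 OE libraries were below all EV control libraries. The EV control libraries were the more spread, 7.19 ± 1.92 against 4.25 ± 0.341 CPM (SD, n = 3), and the log2 ratio within number 1 was -0.38, smaller than -0.94 and -0.83 within numbers 2 and 3. The paired log2 fold change was -0.72 ± 0.15 (SE), rank 171 of 14090 from the largest decrease. As a description, its edgeR adjusted p was 0.683 without pairing, 0.0105 with it and 0.0765 with pairing but without the libraries numbered 3. Per kb, Serpinb9b and Serpinb8 stood at 1.33 ± 0.38 and 1.5 ± 0.40 in EV control and at 2.94 ± 0.61 and 0.886 ± 0.071 in p27 OE. Their ratio within a library was 0.798 to 1.02 in EV control and 2.85 to 3.71 in p27 OE.

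Furin, the target of Serpinb8, had a mean of 203 ± 24.7 CPM (SD, n = 3) in the control libraries and 209.7 ± 28.2 CPM in the overexpressing ones (paired 0.04 ± 0.05, edgeR adjusted p 0.689). The urokinase gene Plau, whose product Serpinb2 inhibits, was at 101 ± 18.3 and 101 ± 11.9 CPM (0.01 ± 0.06, adjusted p 0.968), and Plat, the tissue-type activator, differed by -0.03 ± 0.06. The lysosomal protease Ctsl differed by 0.12 ± 0.06 (adjusted p 0.247). Elane, the neutrophil elastase gene, had 0 counts in all libraries, and Ctsg had 2 counts in p27 OE 2 and 0 elsewhere. In all, 29 genes of target proteases and the granzyme partner perforin were listed and 16 were tested. Of these 1, Gzme, rose in the paired fit, which called 3.80% of all genes higher, 0 fell and 15 were not called, with a median paired log2 fold change of 0.06 beside -0.00 (-0.0012) for all tested genes.

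Serpinb1a set the libraries numbered 1 apart from the rest and did not separate numbers 2 and 3 or the groups. Its EV control levels were 13.4, 5.62 and 5.04 CPM, and those of p27 OE were 15.6, 4.10 and 4.93 CPM. Both number 1 libraries were above the other 4, and the lower of them was 2.38 times the highest of the others. Of all tested genes 162 (1.15%) had number 1 libraries at least 2-fold above the other 4 by that measure. Between groups, Serpinb1a had a paired log2 fold change of -0.05 ± 0.14 (edgeR SE) and the ratio was 1.17, 0.728 and 0.977 within numbers 1, 2 and 3. Serpinb10, a clade B gene that is no member and was singled out after its values were seen, had 16 and 14 counts in the number 1 libraries and 0 to 4 in the others. Serpinb9 was higher in the number 1 libraries by less, the lower of them 1.17 times the highest of the others. Both number 1 libraries were above the other 4 for 3455 of the 14090 tested genes. The summed level of the 15 immune markers was lower in the number 1 libraries, 50.03 and 47.3 CPM, than in the other 4, 61.5 to 86.6 CPM. Most of this sum was Lyz2, at 33.4 and 28.6 CPM in the number 1 libraries and 39.6 to 53.1 CPM in the others.

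**Figure D3:**
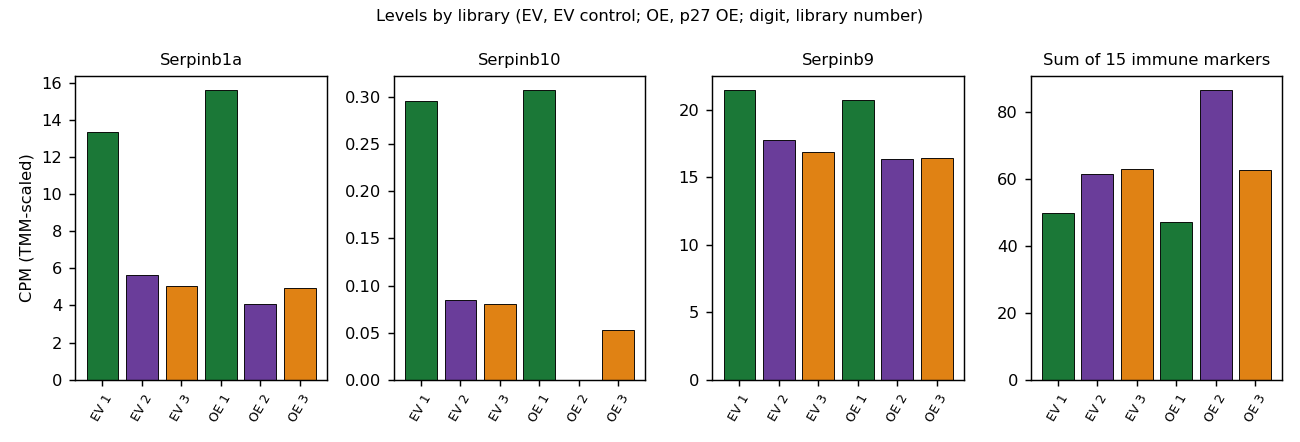
CPM of Serpinb1a, Serpinb10 and Serpinb9 and the summed CPM of 15 immune markers in each library, coloured by library number, each panel with its own axis from 0. Serpinb1a and Serpinb10 are highest in both number 1 libraries, while the immune sum is lowest there.

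The sum of the immune markers, mostly Lyz2, varied in the same order as Serpinb9b among the p27 OE libraries. Of the tested markers, Cd68 and Csf1r had another order. How many of all tested genes share the order of Serpinb9b was not counted. The marker sum was 50.03, 61.5 and 63.0 CPM in EV control 1, 2 and 3, while p27 OE 1, 2 and 3 had 47.3, 86.6 and 62.7 CPM. The groups overlapped in this sum, and of 10 tested immune markers the paired edgeR fit called 0, with 3 genes at 0 in all libraries. Their median paired log2 fold change was 0.47, and 5 of the 10 were higher in p27 OE within all 3 numbers, against 21.8% of all tested genes. The 10 ran from -0.49 ± 0.17 for Cd68 to 1.02 ± 0.37 for Ptprc (SE), whose groups did not overlap, with Cd14 at 0.71 ± 0.20 (edgeR adjusted p 0.0509) and the macrophage gene Lyz2 at 0.02 ± 0.10. Their part in the level of Serpinb9b was not tested. In bulk RNA, a change in the number of cells of a type and a change in RNA per cell cannot be told apart. Cdkn1b was also highest in p27 OE 2, and with 3 libraries its relation to Serpinb9b was not tested.

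Serpinb2, known as an abundant product of stimulated macrophages and keratinocytes, was near the limit of detection. It had 8, 2 and 2 counts in EV control and 10, 11 and 3 in p27 OE. The groups overlapped, and the CPM of EV control 1 (0.148, 95% Poisson interval 0.0640 to 0.292) and p27 OE 2 (0.287, 0.143 to 0.513) had overlapping intervals that cover counting error only. Serpinb2 shares 291 exonic bases with Serpinb10 on the same strand, and 10.4% of its 50-base stretches occur there. The other 20 clade B genes were at similarly low counts or at 0. None passed the filter, 13 had 0 counts in all 6 libraries, among them the 4 Serpinb3 genes and Serpinb9d to Serpinb9g, and no count exceeded 16. That count was of Serpinb10, which had more counts than Serpinb2 in both number 1 libraries. In CPM per kb of exon Serpinb10 was above Serpinb2 in EV control 1 (0.0849 against 0.0631) and below it in p27 OE 1 (0.0881 against 0.0935).

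Within 1500 kb of the start of Serpinb9b, 17 other genes were tested, 4 of them clade B serpins, and the paired edgeR fit called 0 of them, against 7.43% of all tested genes. The nearest tested non-serpin genes were Wrnip1 on one side (-0.05 ± 0.07, 205 kb away) and 1110046J04Rik on the other (-0.33 ± 0.14, adjusted p 0.166, 894 kb away). Next to Serpinb6a, Bphl differed by -0.00 (-0.0031 ± 0.08). Around Serpinb8, 0 of 4 other tested genes were called. They include Vps4b, 793 kb away (0.01 ± 0.05), and on the other side the nearest tested gene was Cdh19 at 3278 kb (-0.92 ± 0.47, adjusted p 0.260, mean level 0.279 CPM).

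**Figure D4:**
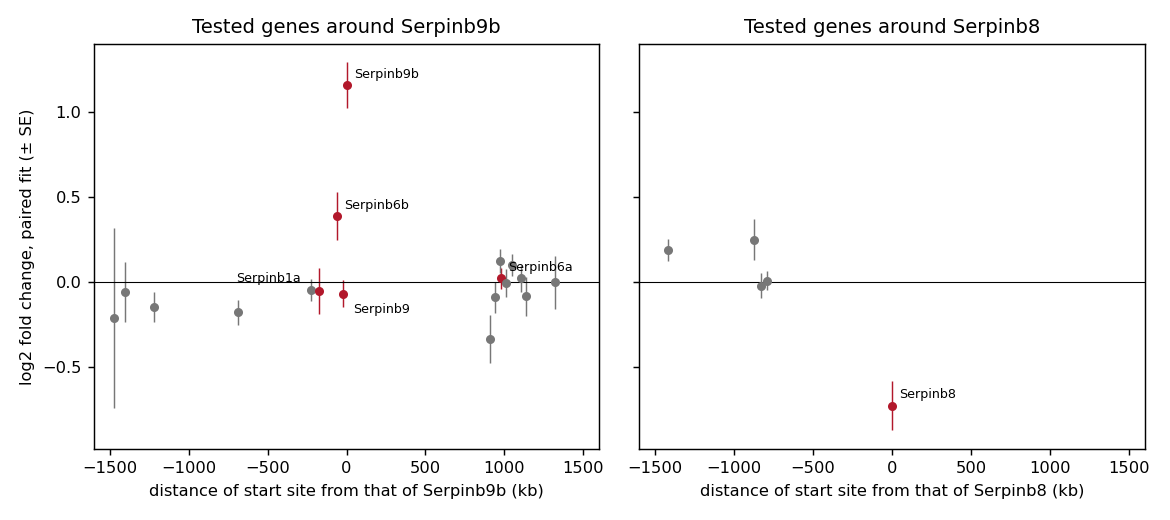
Paired edgeR log2 fold change ± SE of tested genes within 1500 kb of Serpinb9b (left) and Serpinb8 (right), by distance between start sites, with clade B serpins in red and other genes in grey. Serpinb9b (1.16) and Serpinb8 (-0.72) are marked at distance 0, and of the other genes 0 of 17 and 0 of 4 were called.

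Genes with the most similar course across the 6 libraries were found by the root mean square difference of log2 CPM, each gene centred on its mean, among 10608 candidates with a mean of at least 5 CPM. Nearest to Serpinb9b were the sarcomere gene Myom1 (0.20), the fibronectin gene Fn1 (0.20), the intermediate filament gene Des (0.25) and the smooth muscle myosin gene Myh11 (0.26), where the median candidate differed by 0.67. Nearest to Serpinb8 were Abhd6 (0.10), the BMP antagonist gene Chrdl1 (0.13), Fbxo2 (0.14), the sorbitol dehydrogenase gene Sord (0.15) and the transcription factor gene Bcl11b (0.15), with a median of 0.45. Since Serpinb9b and Serpinb8 were chosen for their course, these likenesses are descriptions over 6 libraries. Among the tested members, Serpinb9 and Serpinb6a differed least by this measure (0.20) and Serpinb9b and Serpinb1a most (1.21). The measure also puts genes that vary little near each other, whatever their direction. In p27 OE, Serpinb9 was highest in library 1, where Serpinb6a was lowest.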

How the data were processed

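RNA from mouse embryonic fibroblasts was sequenced in 6 libraries. Per the submitters' processing notes, tools included TopHat2 2.0.14, Bowtie2 2.2.6 and featureCounts 1.4.6 with mm10. Not given in the sources used here are the gene models, strandedness option and multimapping rule behind the counts. The authors deposited raw counts for 24062 gene symbols. Of the columns, 0 were unmapped, and 0 rows lacked a name.

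Genes were filtered with edgeR's filterByExpr (minimum count 10, minimum total 15), leaving 14090, and scaled by TMM, and CPM rest on the scaled sizes. Group differences came from edgeR 4.0.16 in R 4.3.3 (quasi-likelihood, robust, two-sided, Benjamini-Hochberg over all tested genes, threshold 0.05), without and with the library number as a block. SE come from the F statistic. Within numbers 1, 2 and 3, the deviations of the EV control and p27 OE libraries from their group means correlated at 0.77, 0.42 and 0.54 (log2 CPM, prior count 2), each above 0.1. Mismatches that involved number 1 gave -0.65 to -0.52, so the check sets number 1 apart. But control 3 with p27 OE 2 gave 0.41 and control 2 with p27 OE 3 gave 0.39, also above 0.1. The check therefore cannot tell whether numbers 2 and 3 are matched correctly, and their pairing rests on the titles. Xist did differ between them: number 2 had 5.93 (EV control) and 9.57 CPM (p27 OE), number 3 had 0.601 and 0.504 CPM. The fitting code was checked on simulated data. Alternatives were other scalings and filters, DESeq2 1.42.0, limma-voom 3.58.1 and leaving out libraries. With 3 libraries against 3, an exact permutation test cannot go below 0.1.

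Members and gene lists were chosen with earlier results of these data known. The rule for named genes took the 7 members, 4 serpins of other clades, 8 target proteases, Cdkn1b, the nearest tested non-serpin genes and the 5 genes nearest in pattern to Serpinb9b and to Serpinb8. Of these, 2 genes are not reported here. Genes outside the rule, such as Gzme, Gzmd and the markers, were named after their values were seen. Positions, exon lengths and transcripts are from GENCODE for GRCm38, which mm10 names. Promoters are from RefSeq, GRCm38.p6, where 6 of the 7 members matched.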

Additional observations from a re-analysis of the deposited data

How the results depend on the processing

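The edgeR fit without pairing called 0 genes in either direction, also with RLE or upper-quartile scaling, with at least 1 CPM in at least 3 libraries and with limma-voom. Without a filter it called 1 higher, and DESeq2 called 53 higher and 36 lower. With the replicate block the counts were 535 higher and 512 lower, 567 and 475 with RLE scaling, 483 and 736 with upper-quartile scaling, 689 and 727 without a filter, 543 and 475 with at least 1 CPM in 3 libraries, 479 and 351 in DESeq2, and 457 and 372 in limma-voom. Leaving out 1 library, unpaired, gave 0 to 1 higher and 0 lower. With the replicate block, leaving out both libraries of number 1, 2 or 3 gave 893, 503 and 224 higher and 848, 425 and 106 lower. The cause was not tested. Serpinb9b and Serpinb8 kept their direction in all 23 settings. With the block they were called in all 7 settings that kept every library, Serpinb9b also in the 3 that left out a number and Serpinb8 in 2 of these. Serpinb6b kept its direction and was called in none.

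Values near 0 changed sign. Serpinb1a was -0.0521 (replicate block), -0.0807 (limma-voom) and with the block -0.0459 (RLE), -0.0725 (upper-quartile), -0.0556 (no filter), -0.0480 (1 CPM), -0.0613 (DESeq2), -0.239 (without number 1) and -0.0660 (without number 3), against 0.04 without pairing. Plau was 0.0055 (replicate block), 0.0016 (RLE), 0.0016 (DESeq2), 0.0055 (limma-voom) and with the block 0.0117 (RLE), 0.0014 (no filter), 0.0094 (1 CPM), 0.0117 (DESeq2), 0.0051 (limma-voom), 0.0242 (without number 2) and 0.0514 (without number 3). With upper-quartile scaling Serpinh1 was -0.0120 and with the block -0.0115, and Vps4b -0.0121 and -0.0120. Bphl with the block was 0.0030 (RLE), 0.00089 (1 CPM), 0.0031 (DESeq2), 0.0247 (without number 1) and 0.0334 (without number 2). Also with the block, Serpinb6a was -0.0201 without number 2 and -0.0101 without number 3, Serpinf1 -0.0103 and Serpinh1 -0.0031 without number 2, and Plat 0.0318 without number 1. Over unpaired fits that left out 1 library the ranges were -0.834 to 0.629 for Serpinb1a, -0.0312 to 0.0833 for Serpinb6a, -0.190 to 0.0441 for Serpinb9, -0.261 to 0.0962 for Serpine2, -0.0013 to 0.0658 for Serpinf1, -0.0105 to 0.0275 for Serpinh1, -0.0537 to 0.148 for Furin, -0.136 to 0.125 for Plat, -0.149 to 0.0888 for Plau, -0.0357 to 0.0516 for Vps4b and -0.117 to 0.131 for Bphl. Depth limits Serpinb2 and the 20 other clade B genes that were not tested.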

Other observations

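Serpins of the other clades, which are mostly secreted, were set beside the clade B genes. Counts were 0 in all libraries for 14 of the 36, and 10 were tested. In the paired edgeR fit the collagen chaperone gene Serpinh1 differed by 0.01 ± 0.06 on the log2 scale (SE), the antiangiogenic factor gene Serpinf1 by 0.04 ± 0.06 and the protease nexin gene Serpine2 by -0.08 ± 0.06. These 3 genes were not called, and their groups overlapped.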
